A study of Mus musculus with 6 samples.

Results

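The 8 genes described here are transcripts by which B cells and antibody-secreting plasma cells are recognised in a tissue: Ighm, Igkc, Iglc2, Jchain, Cd79a, Cd79b, Ms4a1 and Mzb1. They were chosen by name, and each matched 1 of the 50600 rows of every deposited gene table. RNA of whole liver was sequenced from C57BL/6 mice of 1 month. In the Dicer LKO group (n = 3; genotype Dicerloxp/loxp;Alb-cre) both Dicer alleles carry loxP sites and Cre recombinase is expressed from the albumin promoter, a hepatocyte promoter. The control group (n = 3; Dicerloxp/loxp) carries the same floxed alleles without the Cre gene, although the series' design text calls these mice wild-type. The B lineage is therefore not the cell type in which the deletion is directed. Whether each sample is a different animal is not stated in the labels. The p-values below set group differences against the spread of these samples only, and part of that spread may be technical.

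B cells carry a membrane immunoglobulin as their antigen receptor, which signals through the Cd79a and Cd79b proteins. After activation some become plasma cells, which stop making most B cell surface proteins and transcribe immunoglobulin genes at very high levels for secretion. Whole liver RNA reports on all liver cells at once, so fewer cells of a type and less RNA per cell cannot be told apart. The liver is not a site of antibody production in the way that spleen and bone marrow are, but it holds resident and passing B cells and plasma cells, and it moves dimeric IgA into bile through the receptor encoded by Pigr.

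In GENCODE M21 (GRCm38), Ighm, the constant region of the IgM heavy chain, lies on chromosome 12 (113418558 to 113422730, minus strand). Igkc, the kappa light chain constant region, lies on chromosome 6 (70726435 to 70726966, plus strand), and Iglc2, a lambda constant region, on chromosome 16 (19198396 to 19200351, minus strand). Jchain, whose product links the units of polymeric IgM and of dimeric IgA, lies on chromosome 5 (88519809 to 88527891, minus strand). Cd79a is on chromosome 7 (24897381 to 24902197, plus strand), Cd79b on chromosome 11 (106311341 to 106314762, minus strand), and Ms4a1, which encodes the B cell surface protein CD20, on chromosome 19 (11249675 to 11266241, minus strand). Mzb1, a chaperone of the endoplasmic reticulum that helps antibody assembly, was also counted. Values count whole genes, so membrane and secreted forms of the heavy chain are not separated. Iglc2 and Iglc3 are near-identical and reads may be shared between them.

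RefSeq promoter sequences (GRCm38.p6) were at hand for 2 of the 8 members, Jchain and Cd79a, which stand for the abundant secretory and the scarce receptor transcripts. Shown 5′ to 3′ are the 250 bases before the Jchain start site (chr5:88527898-88528147, minus strand) and, for Cd79a, the 134 bases that precede every annotated exon (chr7:24897247-24897380, plus strand). Capitals mark matches to GGGAAT, a half-site of the B lineage factor EBF1, and to the E-box CAGGTG bound by E2A.
Jchain: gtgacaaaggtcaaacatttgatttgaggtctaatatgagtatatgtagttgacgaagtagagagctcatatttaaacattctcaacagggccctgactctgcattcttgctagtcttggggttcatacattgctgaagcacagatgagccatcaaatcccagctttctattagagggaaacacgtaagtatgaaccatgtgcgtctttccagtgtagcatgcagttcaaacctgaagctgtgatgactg
Cd79a: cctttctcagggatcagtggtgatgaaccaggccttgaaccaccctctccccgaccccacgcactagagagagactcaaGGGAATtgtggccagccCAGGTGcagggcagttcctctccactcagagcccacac
The motifs were picked after the sequences had been read, both strands were searched over the full entries, which reach 50 bases past the start site, and none of the printed matches overlap. GGGAAT was in 13.1% and CAGGTG in 20.2% of the 32851 promoter entries. In Cd79a these matches began at −171 and −154. The immunoglobulin octamer ATGCAAAT (1.74% of entries), the longer EBF1 motif CCCNNGGGA (6.56%) and the E-box CAGCTG (16.3%) matched neither entry. The Ets motif AGGAAGTG (4.07%) matched Cd79a at −55 and CAGGTG matched Jchain at 5 in the opposite orientation, outside the stretches printed.

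The libraries held 14141973 to 25049749 counts, of which control replicate 3 had the fewest. Dicer1 itself was at 24.4 to 31.2 CPM (counts scaled to the size of each library, with TMM factors) in Dicer LKO and at 42.55 to 69.25 CPM in the controls, in the direction of the labels. Some libraries stood apart before any B lineage gene was considered. Mitochondrial genes took 10.2% of the counts of control replicate 3 against 4.62% to 6.46% elsewhere. Saa1, an acute phase gene, was at 1837, 8448 and 1589 CPM in Dicer LKO replicates 1 to 3. In control replicates 1 to 3 it was at 28.8, 2911 and 10.1 CPM. The 10 heart muscle genes listed gave 27 and 11 counts for Dicer LKO replicates 1 and 2, 308 to 320 for Dicer LKO replicate 3 and control replicates 1 and 2, and 2000 for control replicate 3.

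Levels per length differed widely between the members, with Igkc and Jchain the highest and Cd79a and Ms4a1 the lowest. Per length, Igkc was at 300 ± 214 TPM in Dicer LKO and 72.6 ± 40.1 TPM in the controls, and Jchain at 17.7 ± 9.38 and 8.15 ± 3.85 TPM (mean ± SD, n = 3). Cd79a was at 0.230 ± 0.165 and 0.157 ± 0.0751 TPM and Ms4a1 at 0.103 ± 0.0907 and 0.147 ± 0.0231 TPM (mean ± SD, n = 3). All tests below are of Dicer LKO against control, and fold changes are log2 values, positive where Dicer LKO was higher. No member was called: of the 7 members that passed the filter on low counts, 0 had an adjusted p under 0.05 by edgeR's quasi-likelihood test, where 1.29% of the 14314 genes tested did. At an unadjusted p under 0.05 there were 2 members of 7, Ighm and Igkc, both higher in Dicer LKO. Among all genes tested, 21% passed that mark in either direction and 8.88% as higher. DESeq2 called 1 of the 8 members, Ighm, and 6.77% of the 16213 genes it tested. The log2 fold change was positive for 6 of the 7, with a median of 1.18, against 48.6% positive and a median of −0.01 over all genes tested. This contrast is a description only, because the members were chosen with earlier results of these data known. Some members also vary together over the libraries (Pearson's r of log2 CPM 0.97 for Igkc with Jchain and for Cd79b with Mzb1).

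The kappa chain gene Igkc was the most abundant member. Dicer LKO replicates 1 to 3 held 131, 53.27 and 245.5 CPM, and control replicates 1 to 3 held 32.5, 53.31 and 14.6 CPM. The groups met at a single level: Dicer LKO replicate 2 and control replicate 2 were nearly equal, and Dicer LKO replicates 1 and 3 lay above every control. The spread within Dicer LKO was 4.61-fold and within the controls 3.65-fold. By edgeR Igkc differed by 2.09 on the log2 scale (SE 0.70, adjusted p = 0.174). It was 1.46 without Dicer LKO replicate 3 and 2.63 without control replicate 2.

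Jchain had the same order of Dicer LKO libraries as Igkc, and Iglc2 did not. Jchain was at 38.25, 13.7 and 41.75 CPM in Dicer LKO replicates 1 to 3 and at 13.25, 21.04 and 6.95 CPM in control replicates 1 to 3. Dicer LKO replicate 2 again lay among the controls, below control replicate 2. The log2 fold change was 1.18 (SE 0.54, adjusted p = 0.278, edgeR). Iglc2 was at 5.41, 1.10 and 3.75 CPM in Dicer LKO and at 1.13, 2.02 and 0.510 CPM in the controls, with replicate 1 the highest library and Dicer LKO replicate 2 below 2 of the controls. Its log2 fold change was 1.46 (SE 0.65, adjusted p = 0.255, edgeR).

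Ighm was the only member whose groups did not overlap. Its level was 7.61, 9.29 and 9.60 CPM for Dicer LKO replicates 1 to 3, against 3.11, 2.98 and 5.61 CPM for control replicates 1 to 3. Every Dicer LKO library lay above every control, as was the case for 12.7% of all genes tested. Its means were 8.84 ± 1.07 and 3.90 ± 1.48 CPM (SD, n = 3), 2.27-fold apart. In log2 terms this was 1.19 (SE 0.27), and the adjusted p of 0.0773 missed the threshold by edgeR, while DESeq2 gave an adjusted p of 0.00570 and edgeR without a filter on low counts, which called 1.78% of 23659 genes, 0.0323. Dicer LKO replicate 2, the library with the lowest Igkc, Jchain and Iglc2 of its group, was not low for Ighm, and the highest library of Dicer LKO was 1.26-fold above the lowest. Over the 6 libraries the Pearson correlation of log2 CPM was 0.52 between Ighm and Igkc and 0.97 between Igkc and Jchain, given as a description of 6 libraries that differ in group and depth.

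**Figure D1:**
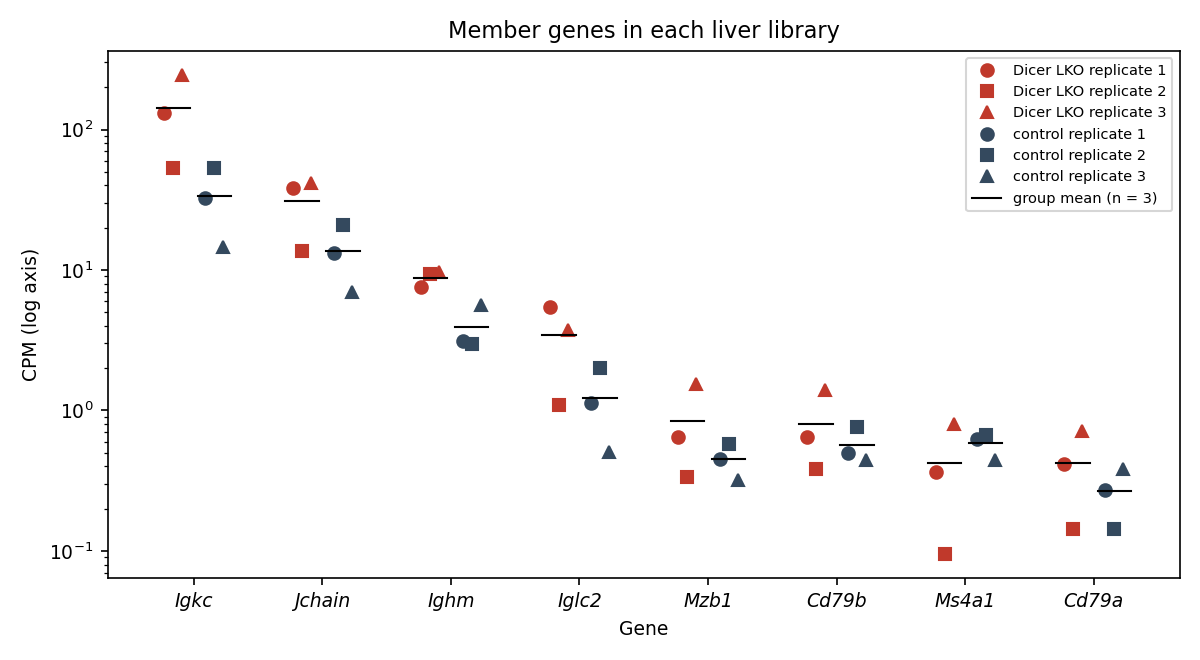
CPM on a log axis of the 8 member genes in each library, with red symbols for Dicer LKO and dark symbols for control, the symbol shape giving the replicate number and horizontal lines the group means (n = 3). Igkc runs from 14.6 to 245.5 CPM, the receptor genes at the right lie near or below 1 CPM, and only for Ighm do all Dicer LKO libraries sit above all controls.

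Mzb1, which plasma cells and some B cells express, was low in every library, at 0.642, 0.3335 and 1.55 CPM in Dicer LKO replicates 1 to 3 and 0.451, 0.576 and 0.319 CPM in control replicates 1 to 3. These values rest on 5 to 39 counts per library. Dicer LKO replicate 3 was high and replicate 2 lay between the controls. Its log2 fold change of 0.90 (SE 0.59, adjusted p = 0.429, edgeR) fell to 0.11 without Dicer LKO replicate 3.

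Of the receptor signalling genes, Cd79b was not called and Cd79a had too few counts to be tested in the reported fit. Cd79b had 14, 8 and 35 counts in Dicer LKO replicates 1 to 3 and 11, 16 and 7 in control replicates 1 to 3, which corresponds to 0.642, 0.381 and 1.39 CPM and to 0.496, 0.768 and 0.446 CPM. Dicer LKO replicate 3 was the highest library and replicate 2 the lowest of all 6, so that the groups overlapped fully. The log2 fold change was 0.50 (SE 0.53, adjusted p = 0.633, edgeR), and it was −0.16 without Dicer LKO replicate 3. Cd79a had 9, 3 and 18 counts in Dicer LKO and 6, 3 and 6 in the controls and did not pass the filter on low counts. Without the filter its log2 fold change was 0.72 (SE 0.68, adjusted p = 0.644, edgeR).

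Ms4a1 was the member with a negative fold change. It had 8, 2 and 20 counts in Dicer LKO replicates 1 to 3 (0.367, 0.0953 and 0.797 CPM) and 14, 14 and 7 counts in control replicates 1 to 3 (0.631, 0.672 and 0.446 CPM). Dicer LKO replicates 1 and 2 lay below every control and replicate 3 above them. Its value of −0.45 on the log2 scale (SE 0.63, adjusted p = 0.729, edgeR) became 0.04 without Dicer LKO replicate 2. The immunoglobulin constant genes summed to 531.5, 204 and 1031 TPM for Dicer LKO against 145, 211 and 71.2 TPM for control. Dicer LKO replicates 1 and 3 had larger sums than any control, and replicate 2 lay just below control replicate 2.

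**Figure D2:**
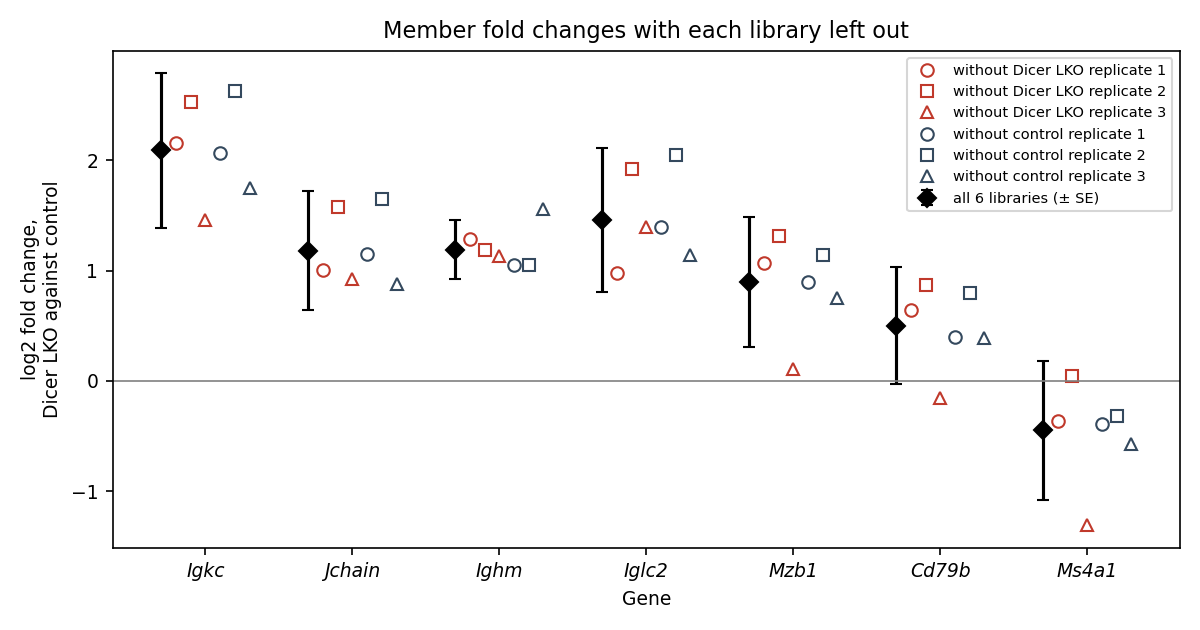
Log2 fold change of the 7 tested members with all 6 libraries (black diamonds, bars ± SE) and with each library left out (open symbols, red where a Dicer LKO library and dark where a control library was left out). Ighm stays between 1.05 and 1.56, Mzb1 reaches 0.11 and Cd79b −0.16 without Dicer LKO replicate 3, and Ms4a1 ranges from −1.31 to 0.04.

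The other heavy chain classes, from a list of 10 further immunoglobulin constant genes, showed which antibodies these transcripts encode. Of 6 that passed the filter, 0 were called, 6 had positive values and the list's median was 2.18, and a gene near 0 in the controls can pass this filter through its Dicer LKO counts alone. At an unadjusted p under 0.05 there were 4 (21% of all genes tested), and DESeq2 called Ighg2b, Ighg2c and Iglc1 (6.77% of the genes it tested). Ighg2b, an IgG constant region, was at 126.6, 37.9 and 218.5 CPM in Dicer LKO and at 21.5, 18.8 and 8.48 CPM in the controls, without overlap (log2 fold change 2.97, SE 0.71, adjusted p = 0.102, edgeR). Ighg2c, the IgG class that C57BL/6 mice carry in place of IgG2a, was at 108.5, 54.6 and 215.3 CPM against 30.4, 24.7 and 9.95 CPM, also without overlap (2.54, SE 0.63, adjusted p = 0.106, edgeR). Without Dicer LKO replicate 2, where 0.623% of 14777 genes were called, Ighg2b was called by edgeR at 3.44 (adjusted p = 0.0445). Ighg2b and Ighg2c are similar in sequence and the split of reads between them is uncertain.

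Igha, the heavy chain of IgA, and Ighg1 overlapped between the groups. Igha was at 44.9, 25.8 and 68.9 CPM in Dicer LKO and 19.7, 47.45 and 17.3 CPM in the controls (0.72, SE 0.51, adjusted p = 0.469, edgeR). Control replicate 2 was above Dicer LKO replicates 1 and 2. Ighg1 was at 27.75, 9.53 and 93.9 CPM against 7.21, 19.4 and 2.87 CPM, with Dicer LKO replicate 3 far above the rest (2.15, SE 1.06, adjusted p = 0.319, edgeR). The lambda genes Iglc1 and Iglc3 had log2 fold changes of 1.96 (adjusted p = 0.149, edgeR) and 2.22 (adjusted p = 0.0773, edgeR). Iglc3 rested on 11 to 18 counts for Dicer LKO against 1 to 4 for control. These 4 genes and other genes named outside the stated rule were picked after their values were seen.

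IgG was the largest heavy chain class in every library, with a larger share in Dicer LKO. As a share of heavy chain TPM, IgG was 83.8%, 75.9% and 87.3% for Dicer LKO replicates 1 to 3 against 73.1%, 56.1% and 49.8% for control replicates 1 to 3. IgA was 14.4%, 19.2% and 11.4% against 24.2%, 41.8% and 40.5%. Neither share overlapped between the groups. The mean difference was 22.7 percentage points for IgG and −20.5 for IgA, and the exact two-sided permutation p was 0.1 for each, the smallest that 3 against 3 allows. The share of IgM was 1.67%, 4.74% and 1.08% against 2.56%, 1.73% and 8.89% (exact permutation p = 0.5), and lambda chains made up 5.88% to 8.61% of light chain TPM for Dicer LKO against 8.26% to 8.83% for control (exact permutation p = 0.3). These 4 shares were examined after the values had been seen, and 4 such tests at this size cannot pass a threshold of 0.05.

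**Figure D3:**
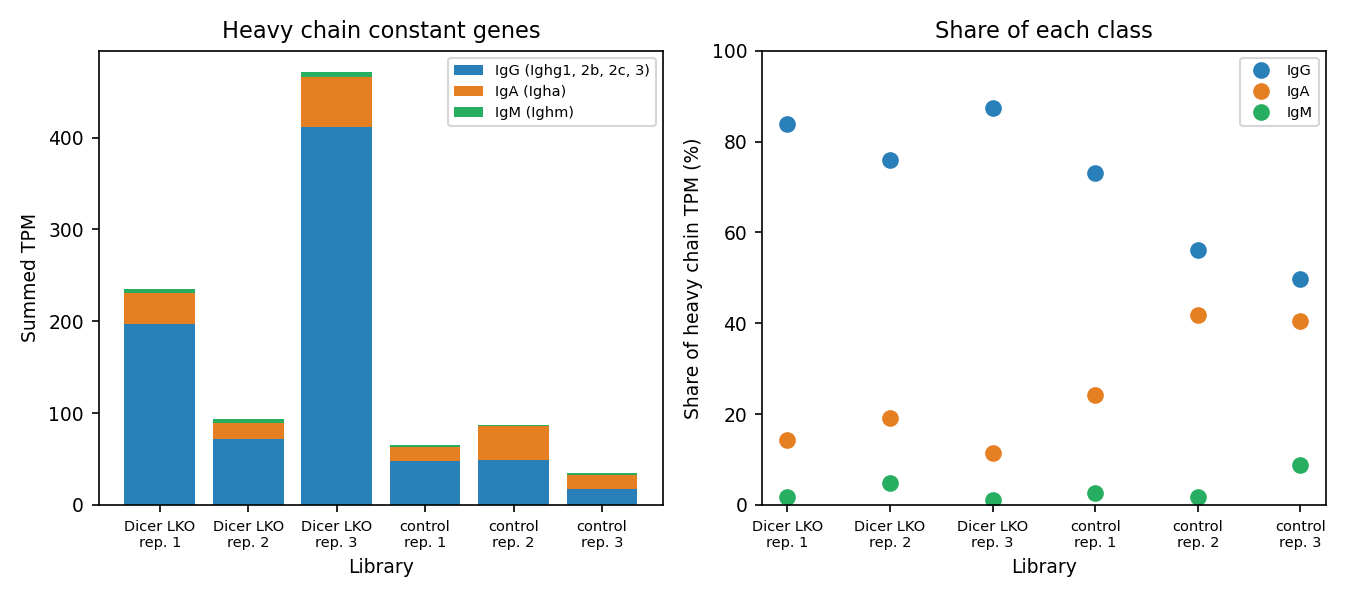
Left, summed TPM of the IgG, IgA and IgM heavy chain genes in each library, stacked from 0. Right, each class as a percentage of heavy chain TPM. The IgG share is 75.9% to 87.3% for Dicer LKO against 49.8% to 73.1% for control, and the height of the stacks differs more within Dicer LKO than the shares do.

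The variable segments, which carry the antigen-binding part, were read over many genes. The files list 185 Ighv, 160 Igkv and 3 Iglv genes. The Ighv genes gave 838, 315 and 1902 counts for Dicer LKO replicates 1 to 3 against 184, 150 and 84 for control replicates 1 to 3, that is 38.4, 15.0 and 75.8 CPM against 8.29, 7.20 and 5.36 CPM, with no overlap. The Igkv genes summed to 41.4, 18.2 and 85.0 CPM against 10.2, 18.15 and 5.93 CPM, so that Dicer LKO replicate 2 equalled control replicate 2, as it did for Igkc. Any count was found for 66 to 87 Ighv genes in Dicer LKO and for 44 to 56 in the controls, a number that moves with the counts available.

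No Ighv or Igkv gene dominated a library. The most counted Ighv gene took 8.59% of Ighv counts in Dicer LKO replicate 1 (95% Wilson interval 6.88% to 10.7%), 6.03% in replicate 2 and 5.68% in replicate 3, and 11.4%, 12% and 7.14% in control replicates 1 to 3. For Igkv the top share was 6.65% to 9.75% for Dicer LKO against 7.53% to 9.26% for control. These intervals take in counting error alone, because no molecular identifiers separate molecules from copies. Igkv10-96, the Igkv gene with the most counts, had 60, 26 and 208 counts in Dicer LKO and 18, 26 and 4 in the controls (2.37, SE 0.81, adjusted p = 0.169, edgeR). Ighv3-6, the leading Ighv gene, had 72, 16 and 108 against 8, 5 and 6 (3.08, SE 0.66, adjusted p = 0.0718, edgeR). Iglv1, the leading Iglv gene, had 82, 35 and 217 against 33, 29 and 4 counts (2.13, SE 0.75, adjusted p = 0.181, edgeR). Of 24 variable genes that passed the filter, 2 rose: Igkv8-30 (30, 19 and 60 against 2, 6 and 2 counts, adjusted p = 0.0489, edgeR) and Ighv1-55 (25, 14 and 46 against 3, 3 and 2 counts, adjusted p = 0.0445, edgeR). With so few counts in the controls, such genes pass the filter through the Dicer LKO libraries, so the share called among them is not comparable with that of all genes.

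No gene of the B lineage lists was called in the reported fit. The 6 B lineage lists held 91 different genes, of which 90 were in the files and 63 passed the filter. By edgeR 0 were called, where 1.29% of all genes tested were. Of the 63, 17 had an unadjusted p under 0.05, against 21% of all genes tested. Positive values were found for 47, against 48.6% of all genes tested. DESeq2 called 6 of the 78 it tested, 5 of these higher, which is close to its 6.77% over all genes. For 14 of the 63 every Dicer LKO library lay above every control (12.7% of all genes tested). A gene low in the controls, such as Iglc3 (18, 11 and 15 against 3, 4 and 1 counts), can pass the filter through its Dicer LKO counts alone. Such a gene tends to be positive. The lists were also chosen with earlier results of these data known, so the counts of positive and of non-overlapping genes are descriptions only. In the other direction, Bach2 and Ikzf3 (log2 fold change −0.52, adjusted p = 0.445, edgeR) had every Dicer LKO library below every control. The share of such genes over all genes was not taken.

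Receptor and surface genes of B cells were mostly too low to test: 9 of 20 passed the filter, 8 of these had positive values and the median was 0.61. Ly6d, which also marks epithelial cells, had the highest mean TPM of the list through Dicer LKO replicate 2 alone. It was at 1.28, 28.5 and 3.47 CPM in Dicer LKO and 0.406, 0.480 and 0.191 CPM in the controls, without overlap. By edgeR the difference was not called (4.88, SE 1.42, adjusted p = 0.145), while DESeq2 called it (4.94, adjusted p = 0.00382). Ly86, a partner of the Toll-like receptor relative Cd180 that macrophages also express, was higher than Ly6d in the other 5 libraries, at 5.17 ± 0.987 against 2.63 ± 1.20 CPM (SD, n = 3; 0.96, adjusted p = 0.189, edgeR). Cd72, a B cell inhibitory receptor also found on macrophages, was at 3.90, 4.05 and 4.86 against 1.58, 2.64 and 0.893 CPM (1.31, adjusted p = 0.107, edgeR; DESeq2 adjusted p = 0.0299).

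Signalling and transcription genes of B cells had a median of 0.11 over 16 tested of 20, and 9 were positive. The most abundant, the adaptor Pik3ap1 and the Src family kinase Lyn, are expressed in other blood cells too, and they had log2 fold changes of 0.10 and 0.13 (adjusted p = 0.770 and 0.623, edgeR). Pou2af1, the B cell coactivator of octamer factors, was at 0.780, 0.619 and 1.20 against 0.270, 0.432 and 0.383 CPM without overlap (1.26, SE 0.42, adjusted p = 0.151, edgeR). Bach2, a repressor that holds back plasma cell differentiation, was at 3.58, 3.19 and 3.625 against 4.82, 7.73 and 14.1 CPM, and was the lowest value of the list (−1.35, SE 0.37, adjusted p = 0.105, edgeR). Bach2 was called by edgeR without control replicate 1 (−1.65, adjusted p = 0.0394), where 2.63% of 14809 genes were, and by DESeq2 (adjusted p = 0.0169).

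Genes of plasma cell differentiation and secretion gave a median of 0.18 over 16 tested of 18, 10 of them positive. Most of these serve protein secretion in hepatocytes as well. The chaperone Hsp90b1 and the degradation factor Herpud1 were the most abundant, with log2 fold changes of 0.28 and 0.35 (adjusted p = 0.554 and 0.711, edgeR). Prdm1, which directs plasma cell differentiation, was at 0.781 ± 0.271 against 0.588 ± 0.282 CPM (SD, n = 3; 0.40, adjusted p = 0.665, edgeR), and Irf4 at 1.63 ± 1.09 against 1.38 ± 0.509 CPM (SD, n = 3; 0.24, adjusted p = 0.843, edgeR). Tnfrsf17, the plasma cell survival receptor, had 2, 1 and 2 counts in Dicer LKO and 0, 1 and 0 in the controls.

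Genes of early B cells gave a median of 1.02 over 5 tested of 10, all positive. The transcription factor Erg and the surface protein Cd93, the most abundant of them, are also endothelial genes, and had log2 fold changes of 0.36 and 0.77 (adjusted p = 0.419 and 0.156, edgeR). Of the 10 genes, 5 had too few counts to test. The median and the signs therefore come from Il7r, Dntt, Cd93, Erg and Sox4 alone, with 0 called. The recombinase gene Rag2 and the surrogate light chain gene Igll1 had 0 counts in every library, Rag1 had 1 count in all, Vpreb1 had 0 to 3 per library and Vpreb3 0 to 2. Dntt, the template-free DNA polymerase of developing lymphocytes, passed the filter with 31, 30 and 16 counts against 13, 10 and 10 (1.02, SE 0.42, adjusted p = 0.214, edgeR). A count of 0 allows up to 3 counts per library, or 0.12 to 0.191 CPM.

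Survival, homing and transport genes had a median of 0.39 over 11 tested of 15, with 9 positive. Pigr and the chemokine Cxcl12 were the most abundant, with log2 fold changes of −0.03 (SE 0.20) and 0.09 (SE 0.16) and adjusted p-values of 0.956 and 0.795 by edgeR. The B cell survival ligand BAFF, encoded by Tnfsf13b, was at 0.550, 1.10 and 1.275 CPM in Dicer LKO and 0.586, 0.288 and 0.319 CPM in the controls, with Dicer LKO replicate 1 below control replicate 1 (1.26, SE 0.47, adjusted p = 0.186, edgeR). The B cell attractant Cxcl13 was at 1.95 ± 0.781 against 0.800 ± 0.514 CPM (SD, n = 3; 1.27, adjusted p = 0.212, edgeR).

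Markers of other blood cells are given beside these genes, and their part in the differences was not tested. Neutrophil markers had a median of 1.71 over 10 tested of 11, all positive with 0 called. Their summed level was 57.2 to 153.7 TPM in Dicer LKO and 4.71 to 42.3 TPM in the controls, led by S100a9 (2.07, adjusted p = 0.180, edgeR). Kupffer cell and macrophage markers had a median of 0.80 over 14, and 2 rose, Cx3cr1 (2.14, adjusted p = 0.0196, edgeR) and Trem2 (2.06, adjusted p = 0.0415, edgeR), with summed levels of 271.7 to 389.6 against 150 to 308.8 TPM. Erythroid genes summed to 1788 to 3502 against 370.6 to 537.3 TPM and 6 of 8 tested rose, among them Hbb-bs (2.91) and Hbb-bt (3.05), both with an adjusted p of 0.0148 by edgeR. The other two tested genes had negative values: Alas2, the first enzyme of erythroid heme synthesis, was at −0.58 (adjusted p = 0.156, edgeR) with every Dicer LKO library below every control, and the transcription factor Klf1 was at −0.55 (adjusted p = 0.363, edgeR).

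T and NK cell markers had 0 called. T cell markers, 6 tested of 16, summed to 2.43 to 9.23 TPM in Dicer LKO and 4.18 to 5.07 TPM in the controls, with the extremes in Dicer LKO replicates 2 and 3 (median 0.58, Trbc2 at 0.82, adjusted p = 0.390, edgeR). NK cell markers, 3 tested of 10, summed to 2.78 to 4.21 against 2.15 to 3.5 TPM (median 0.51, Klrk1 at 0.57, adjusted p = 0.360, edgeR). Of the plasmacytoid dendritic cell list 5 of 10 were tested, with 0 called and a median of 0 (Bst2 at −0.05), and summed levels of 69.9 to 97.2 against 86.3 to 103 TPM. The list's more specific gene Siglech had 5, 11 and 14 counts in Dicer LKO and 2, 2 and 1 in the controls and did not pass the filter. Markers of leukocytes in general had a median of 0.59 over 9 tested of 10 with 0 called, at 51.1 to 76.3 against 43.9 to 66.5 TPM, and Lcp1, the most abundant, was at −0.06 (adjusted p = 0.847, edgeR). Hepatocyte genes had a median of −0.03 over 9 tested of 10 with 0 called (Alb at 0.50, adjusted p = 0.476, edgeR), at summed levels of 21530 to 38030 TPM. Heart muscle genes had a median of −2.49 over 7 tested of 10 with 0 called (Myl2 at −4.92, adjusted p = 0.197, edgeR), at 0.35 to 8.15 against 9.81 to 62.4 TPM.

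**Figure D4:**
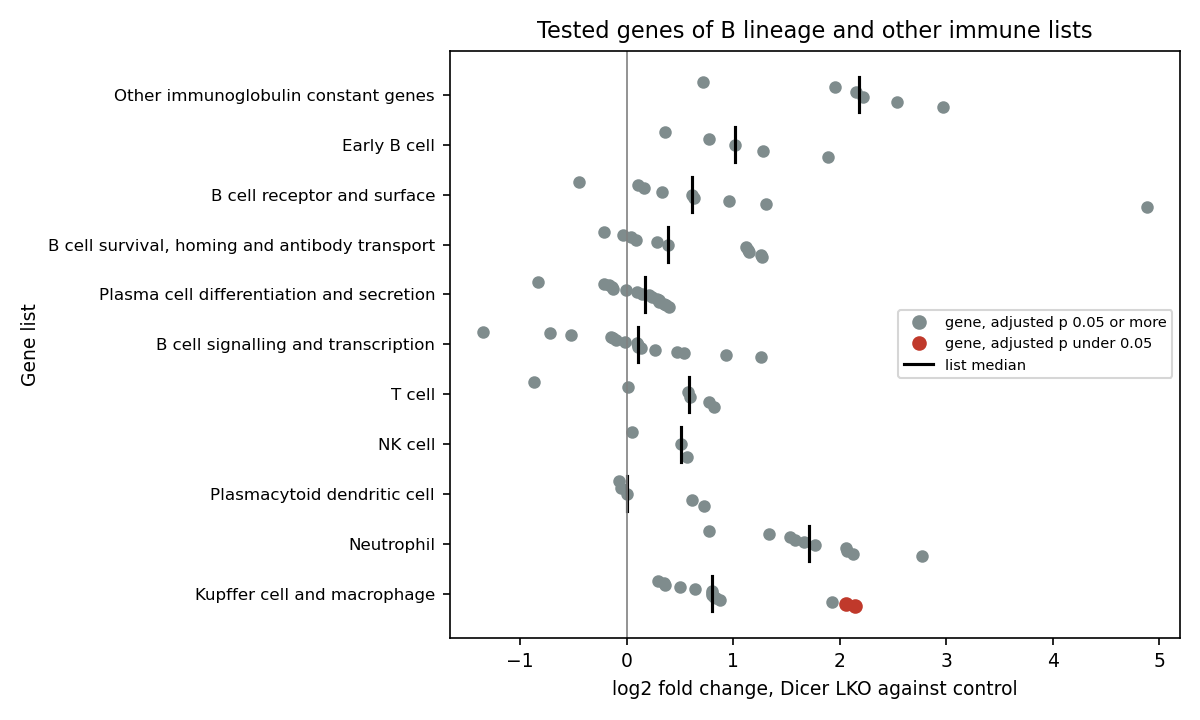
Log2 fold changes of the tested genes of 6 B lineage lists and 5 lists of other immune cells, 1 point per gene, with black lines at the list medians and red points for genes with an adjusted p under 0.05. No B lineage gene is red, the immunoglobulin constant genes have the highest median (2.18) and the isolated point at 4.88 is Ly6d.

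The genes most like each member over the 6 libraries were mostly not B lineage genes, and with 14314 genes and 6 libraries high correlations are common. By Pearson's r of log2 CPM, Igkc was most like Msrb2 (0.998), Jchain like Gng2 (0.994), Iglc2 like Epsti1 (0.989) and Ighm like Dpep1 (0.994). Cd79b was most like Rian (0.981), Mzb1 like Ptpn18 (0.989) and Ms4a1 like Btbd2 (0.993). The nearest other member was Iglc2 for Jchain (0.983) with 8 of the genes tested closer, Jchain for Iglc2 (0.983) with 4 closer and Jchain for Igkc (0.966) with 55 closer. Cd79b and Mzb1 were each other's nearest member (0.973), with 2 and 5 genes closer. Ighm and Ms4a1 stood apart from the other members: 2535 genes were closer to Ighm than Igkc was (0.524), 1256 were closer to Ms4a1 than Cd79b was (0.688), and the correlation between Ighm and Ms4a1 was −0.47.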

How the data were processed

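Whole liver RNA of 6 samples was analysed. The authors deposited an expected count (estimated reads per gene) and a TPM value per gene, in columns that, per the file headers, are those of RSEM. Bowtie, CASAVA and the human build hg19 are named per the submitters' processing notes, while the gene identifiers are mouse. Counting program, mouse build, strand and read type remain not given in the sources used here. Deposited counts were rounded (96% to 96.5% were whole). A further deposited series table was not used. Sample titles gave groups and replicate numbers. The members and gene lists were chosen with earlier results of these data known, and no list was tested as a set.

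Genes were filtered (filterByExpr), scaled (TMM) and tested with genotype as the only term by glmQLFTest after a robust glmQLFit (edgeR 4.0.16, R 4.3.3); p-values were adjusted by Benjamini-Hochberg over all 14314 genes tested and called under 0.05. Each SE was taken as the size of the log2 value over the root of its F statistic. Pearson's r used log2 CPM with a prior count of 2. The test was tried on simulated data, and the outcome of that trial is not given here. No libraries were alike beyond sampling noise (mean chi-square per gene 26.2 or more). Named by rule were the members; up to 4 called genes, otherwise the 2 most abundant, of each B lineage list; up to 2 called genes, otherwise the most abundant, of each other list; the leading variable gene of each locus; and the gene most like each tested member. Alternatives were library totals, DESeq2 1.42.0, no filter, at least 10 counts in every library, limma 3.58.1 on log2(TPM + 0.1), the replicate number as a block, each library left out and, chosen after seeing the data, only the 4 libraries with heart muscle counts. Coordinates come from GENCODE M21, which matched 50376 gene identifiers. No sequence is shown for the other members.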

Additional observations from a re-analysis of the deposited data

How the results depend on the processing

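The count of 185 genes called over all genes (106 higher) was 103 with library totals, 1098 with DESeq2 (487 higher), 422 without a filter, 113 with at least 10 counts in every library and 27 with only the 4 libraries that held Myh6, Actc1 and Nppa counts, and 23 to 389 with each library left out. The count of members called, 0 in the reported fit, was 1 with DESeq2 and 1 without a filter, in both cases Ighm (log2 fold change 1.20; adjusted p = 0.005695 and 0.0323). It was 0 in every other setting, with each library left out included. The count of B lineage list genes called, 0 in the reported fit, was 6 with DESeq2, 1 with limma on TPM (Iglc3) and 0 to 1 with each library left out. The causes were not tested. Fits with a library left out also have fewer samples, and the highest of their counts, 389, came without control replicate 1.

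The direction turned for Cd79b without Dicer LKO replicate 3 (−0.16; range −0.16 to 0.87 over the libraries left out) and for Ms4a1 without Dicer LKO replicate 2 (0.04; range −1.31 to 0.04) and with only the 4 libraries (0.48). Ighm ranged from 1.05 to 1.56, Igkc from 1.46 to 2.63, Iglc2 from 0.98 to 2.05, Jchain from 0.88 to 1.65 and Mzb1 from 0.11 to 1.31 with each library left out. With only the 4 libraries, where Dicer LKO is 1 library assumed to vary like the controls, Igkc was at 2.92, Mzb1 at 1.81 and Cd79b at 1.32, none called. Library totals moved the median of all genes to −0.13 and limma on TPM to −0.12. Cd79a did not pass the filter and had values without it (0.72) and with DESeq2 (0.71), and with at least 10 counts in every library only Ighm, Igkc and Jchain had one.

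Deviations from the group means of same-numbered libraries correlated at 0.109, 0.065 and −0.096 for replicates 1, 2 and 3. With 3 libraries per group such values cannot show whether same-numbered samples are paired, and the labels give only the number. With the replicate block 245 genes were called and 0 members, with Ighm at 1.23 (adjusted p = 0.0623) and Igkc at 2.01 (adjusted p = 0.445), and not every sample correlated best with its own number. Cd79a, Cd79b and Ms4a1 rest on 2 to 35 counts per library, and Igkc, with 229 to 6162, had no smaller SE (0.70) than Cd79b (0.53), Ms4a1 (0.63) or, without the filter, Cd79a (0.68).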
